A study of Mus musculus with 53 samples.

Results

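H3K4me1, the monomethylation of lysine 4 of histone H3, was compared between naive extra-embryonic endoderm (nEnd) and the SOX2+ cells of KnockOut Serum Replacement (KOSR) culture, using 4 CUT&RUN peak lists of the 53 samples in the series. In CUT&RUN an antibody directs a nuclease to the mark and the DNA it releases is sequenced. The cells were mouse SGGC embryonic stem cells (ESCs), in which the endogenous SOX2 was fused to GFP and the endogenous GATA6 to mCherry. Both nEnd libraries (called nEnd 1 and nEnd 2 here) came from clone B9, grown as nEnd, the stem cell culture of the primitive endoderm (PrE). Both SOX2+ libraries (SOX2+ A and SOX2+ B) came from clone B12, kept in KOSR medium and sorted by flow cytometry for GFP without mCherry, and are named after the letters in their titles, whose meaning the labels do not give. All 4 libraries therefore carry the same reporter alleles, each population rests on 1 clone, and clone and population cannot be told apart in the H3K4me1 comparison itself. Libraries of other antibodies and media from both clones are given beside the results they touch. The labels do not say whether the libraries of a population came from separate cultures, so the spread between them may be technical. Tests of shares run over libraries other than these 4, and most of the tests mix populations, media or clones. Where all libraries of such a test differ in the same direction, its p-value depends only on their number. A peak list from a cell population also does not separate the share of cells that carry the mark from its amount per cell.

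H3K4me1 lies at enhancers, both active and poised ones, and on the flanks of active promoters. Active enhancers usually carry H3K27ac as well. PrE gives rise to the parietal and visceral yolk sac endoderm, and GATA6 is the transcription factor at the top of its programme, upstream of GATA4, SOX17 and the laminin and collagen genes of the basement membrane that endoderm lays down. SOX2, together with POU5F1, NANOG and ESRRB, sustains the pluripotent state. A comparison of the mark in nEnd and in SOX2+ cells asks which putative enhancers are marked in one of these lineages and which in both.

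The lists held 42816 and 18627 peaks in nEnd 1 and nEnd 2 and 58085 and 78354 in SOX2+ A and B. The labels of nEnd 2 and of the NACL H3K4me1 libraries share a numeric tag that nEnd 1 lacks and that the labels do not explain. Read depth is unknown, since the lists carry no read totals, and a longer list shows more regions. Each library was therefore reduced to its 18627 strongest peaks by maximum signal, the number in the shortest list. Merging these peaks wherever they shared at least 1 bp gave 37513 regions. Of these, 7535 (20.1%) held peaks of both nEnd libraries and of no SOX2+ library and are called nEnd-only. A further 7582 (20.2%) held peaks of both SOX2+ libraries and of no nEnd library and are called SOX2+-only, and 3467 (9.24%) held peaks of all 4. The remaining 18929 regions lay in 1 library alone or in a mixed pattern. The classes are defined by H3K4me1, so the mark of these 4 libraries in them is not a result, and the regions are not replicates.

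These sites show what the classes look like in sequence, 3 in nEnd-only regions with a GATA6 peak in both nEnd GATA6 libraries and 3 in SOX2+-only regions with a SOX2 peak in SOX2+ A and B. Each is the 200 bases around the maximum of the GATA6 signal in nEnd B9 or of the SOX2 signal in SOX2+ A, on the plus strand of GRCm38 from RefSeq, in the widest class region of its gene, and none overlaps an exon of a protein-coding gene. Capitals mark AGATAA, a string that GATA factors recognise, in the GATA6 windows on either strand. In the SOX2 windows they would mark CATTGT, the core of the SOX string.
Lama1 (chr17:67771145-67771344): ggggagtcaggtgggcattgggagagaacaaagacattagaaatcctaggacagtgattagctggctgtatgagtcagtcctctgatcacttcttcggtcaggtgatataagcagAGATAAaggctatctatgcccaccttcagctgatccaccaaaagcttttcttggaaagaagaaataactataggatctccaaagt
Col4a1 (chr8:11334620-11334819): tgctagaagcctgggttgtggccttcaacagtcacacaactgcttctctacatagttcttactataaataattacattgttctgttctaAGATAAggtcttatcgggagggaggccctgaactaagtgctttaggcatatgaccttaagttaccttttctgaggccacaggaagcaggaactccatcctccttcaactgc
Gata4 (chr14:63205474-63205673): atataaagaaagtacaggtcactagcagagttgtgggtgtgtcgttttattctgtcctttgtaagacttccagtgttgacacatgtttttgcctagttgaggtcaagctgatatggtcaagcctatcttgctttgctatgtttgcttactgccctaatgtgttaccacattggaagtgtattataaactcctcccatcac
Sox2 (chr3:34665323-34665522): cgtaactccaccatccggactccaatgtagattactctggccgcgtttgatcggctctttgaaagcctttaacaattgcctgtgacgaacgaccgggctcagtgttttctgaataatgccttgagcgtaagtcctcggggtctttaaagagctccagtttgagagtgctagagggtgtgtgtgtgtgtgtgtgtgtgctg
Esrrb (chr12:86501634-86501833): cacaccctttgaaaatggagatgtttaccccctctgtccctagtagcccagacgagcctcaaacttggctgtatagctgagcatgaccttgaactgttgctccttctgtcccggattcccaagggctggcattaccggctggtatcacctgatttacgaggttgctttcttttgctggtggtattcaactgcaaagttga
Zfp42 (chr8:43320755-43320954): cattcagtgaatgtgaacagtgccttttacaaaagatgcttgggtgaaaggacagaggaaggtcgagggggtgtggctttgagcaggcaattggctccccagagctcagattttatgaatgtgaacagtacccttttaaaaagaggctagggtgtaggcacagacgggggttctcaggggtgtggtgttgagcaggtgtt
The Lama1 site lies in an intron of the gene, 41161 bp from the nearest of its start sites, in an nEnd-only region of 38491 bp. The Col4a1 site lies 21894 bp from the Col4a1 start and within the neighbouring Col4a2, and the Gata4 site 8033 bp from a Gata4 start site in an intron of the gene. The Lama1 and Col4a1 windows hold AGATAA once each on the plus strand, and the Gata4 window does not hold these letters. The Sox2 and Zfp42 sites are outside protein-coding genes, 15018 and 13875 bp from the start sites, and the Esrrb site is inside that gene, 2675 bp from a start site. None of the 3 windows at SOX2 maxima holds the SOX string on either strand.

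At 18627 peaks per library, populations differed more than replicates. Of the nEnd 1 peaks, 68.5% overlapped a peak of nEnd 2, while 27.7% overlapped one of SOX2+ A and 29.1% one of SOX2+ B. Of the nEnd 2 peaks, 74.3% overlapped nEnd 1, 26.7% SOX2+ A and 28.2% SOX2+ B. Of the SOX2+ A peaks, 72.8% overlapped SOX2+ B, 31.6% nEnd 1 and 28.6% nEnd 2. With all peaks the order turned for nEnd 1, the longer nEnd list, of whose peaks 39.5% overlapped nEnd 2, 43.0% SOX2+ A and 49.3% SOX2+ B. At equal numbers the share between replicates was at least 68.5% and the share between populations at most 34.2%, that of SOX2+ B peaks with nEnd 1. The 2 patterns that keep replicates together and populations apart were the most frequent of the 15 patterns.

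**Figure D1:**
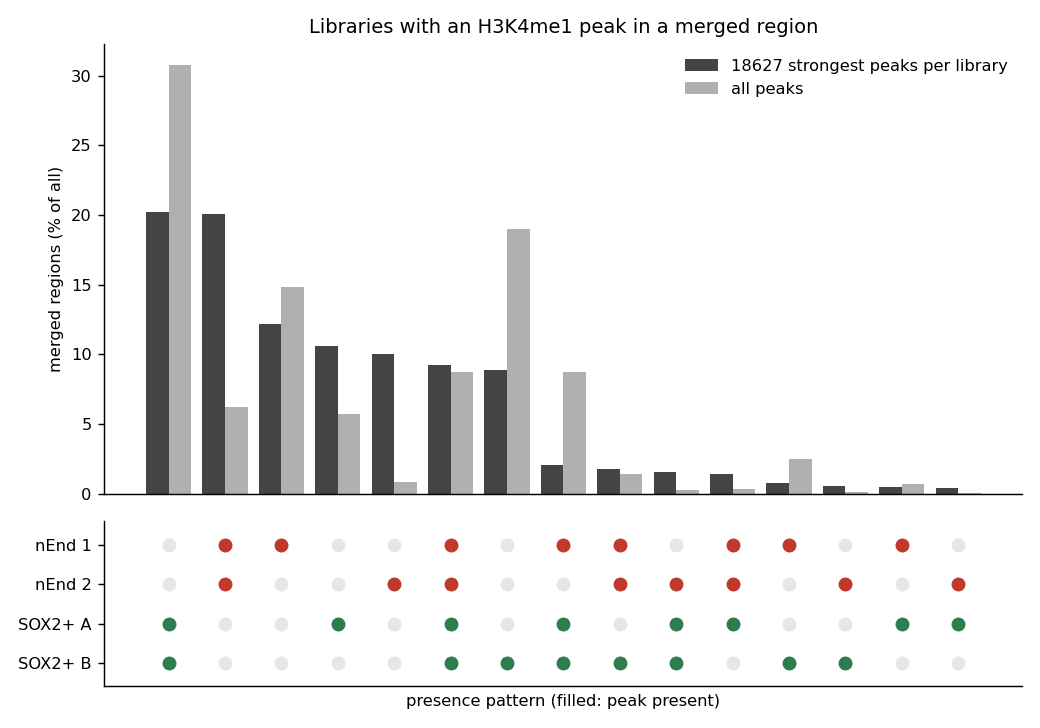
Share of all merged regions (y axis, percent) in each presence pattern of the 4 H3K4me1 libraries (columns below, filled circle for a peak in that library), at 18627 peaks per library (dark) and with all peaks (light). SOX2+-only and nEnd-only take 20.2% and 20.1% of the regions at equal numbers, against 30.7% and 6.21% of the regions with all peaks.

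With all peaks, 93763 regions were found, and the classes held 5827 nEnd-only, 28818 SOX2+-only and 8175 regions in all 4 libraries. The near-equal sizes of the first 2 classes therefore hold at equal peak numbers, which set the sum of peaks alike by construction, and not with the full lists. The nEnd peaks were wider. At equal numbers they covered 109 Mb in nEnd 1 and 80.1 Mb in nEnd 2, against 58.7 Mb in SOX2+ A and 60.3 Mb in SOX2+ B. The mean was 94.7 ± 20.7 Mb (SD, n = 2) in nEnd and 59.5 ± 1.11 Mb (SD, n = 2) in SOX2+, and the groups did not overlap, with an exact permutation p of 0.333, the smallest that 2 against 2 can give. The median width was 5066 bp for nEnd-only, 3172 bp for SOX2+-only and 9039 bp for regions in all 4. A wider region has more room for another peak, so the tested differences of GATA6, of SOX2 in pluripotent cells, and of H3K4me1 and H3K27ac in 2iLIF and NACL were also computed in 1 kb around the strongest position.

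Absence from the equal lists was often not absence from the full lists. A SOX2+ peak ranked below the strongest 18627 of its own list lay in 3464 of the 7535 nEnd-only regions (46.0%, 95% Clopper-Pearson interval 44.8 to 47.1), and such a lower-ranked nEnd peak in 1678 of the 7582 SOX2+-only regions (22.1%, 21.2 to 23.1). All such intervals cover counting error over regions only. The second share rests on nEnd 1 alone, because the nEnd 2 list was used whole. The nEnd-only class thus consists of 4071 regions without any SOX2+ peak and 3464 with lower-ranked SOX2+ peaks. A rank within a list does not say that the mark was lower than in nEnd, since signal was not comparable between libraries. The SOX2+-only class has 5904 regions without any nEnd peak.

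Regions in all 4 libraries, the widest ones, reached a start site most often. Of these, 41.1% (39.5 to 42.8) came within 1 kb of the start site of a protein-coding transcript, against 27.3% (26.3 to 28.3) of nEnd-only and 15.5% (14.7 to 16.3) of SOX2+-only regions. The median distance to a start site was 3484 bp for regions in all 4, 8195 bp for nEnd-only and 17282 bp for SOX2+-only regions, and 17.3% of nEnd-only and 26.5% of SOX2+-only regions lay over 50 kb away. The strongest position itself was within 1 kb of a start site in 5.72% of nEnd-only, 6.19% of SOX2+-only and 5.62% of 4-library regions, without the lead of the last class. It was intronic in 53.5% and 41.0% and intergenic in 37.2% and 50.2%. The difference in the start-site share between nEnd-only and SOX2+-only regions rests on nEnd 1. Without it the shares were 16.9% and 17.6%, and with all peaks they were 16.5% and 18.3%, each in the opposite order. By library, 29.8% of the nEnd 1 peaks, 18.7% of the nEnd 2 peaks, 18.2% of the SOX2+ A peaks and 19.1% of the SOX2+ B peaks came within 1 kb of a start site. The populations overlapped in this share, and the exact permutation p was 0.667.

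**Figure D2:**
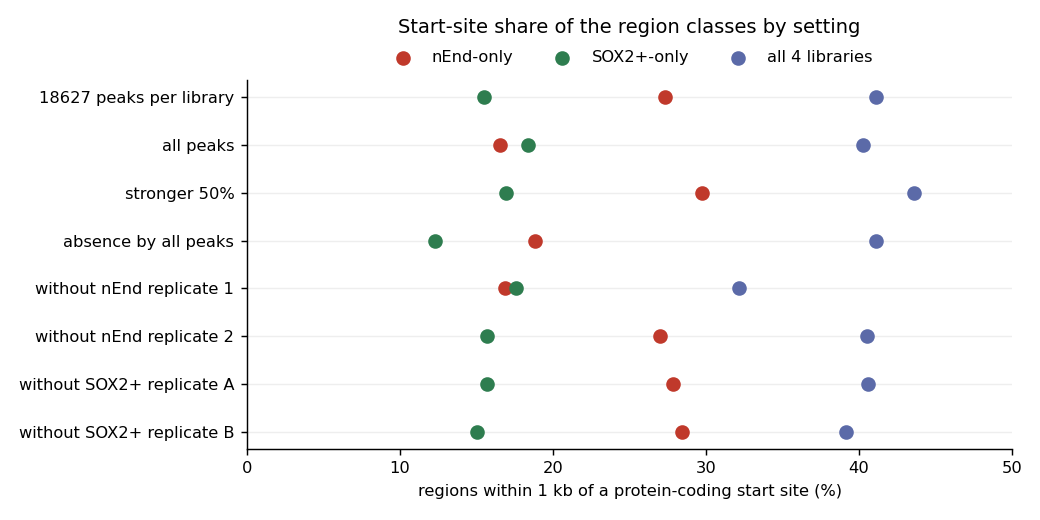
Share of regions within 1 kb of a protein-coding start site (x axis, percent) for nEnd-only, SOX2+-only and regions in all 4 libraries, under 8 settings (y axis), where all 4 stands for all remaining libraries in the rows that leave out a replicate. The red points of nEnd-only lie right of the green points of SOX2+-only except with all peaks and without nEnd 1, where they lie left of them.

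GATA6, which was not used to choose the regions, occupied most nEnd-only regions in nEnd cells. In nEnd a GATA6 peak lay in 56.3% of nEnd-only regions in clone B9 and 66.1% in clone B12, against 4.33% and 6.32% of SOX2+-only regions. Both clones had a GATA6 peak in 4005 of 7535 nEnd-only regions (53.2%, 52.0 to 54.3) and in 264 of 7582 SOX2+-only regions (3.48%, 3.08 to 3.92). The share was high in both clones, although nEnd H3K4me1 was measured in B9 alone. Neither clone had a peak in 30.8% of nEnd-only regions. In double positive (DP) cells, which carry both SOX2-GFP and GATA6-mCherry in the same KOSR culture as the SOX2+ cells, GATA6 peaks lay in 14.5%, 8.43% and 2.95% of nEnd-only regions in the libraries labelled A, A1 and B (the label of A ends in a tag that is not explained). They lay in 5.24%, 2.26% and 0.923% of SOX2+-only regions. The order was the same in all 5 GATA6 libraries, with a mean difference of 25.8 ± 27.7 percentage points (SD, n = 5). The exact sign-flip test gave p = 0.0625, the smallest possible with 5 libraries, and 0.188 after Benjamini-Hochberg adjustment over the 6 tests of this comparison, so the difference did not pass 0.05.

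The size of the GATA6 difference depended on the library. It was 55.9 points over the 2 nEnd libraries and 5.83 points over the 3 DP libraries, whose lists are shorter, at 1391 to 8316 peaks against 24223 and 32510. With the strongest 1391 peaks of each library it was 4.43 points, and in the 1 kb windows 17.3. Regions in all 4 H3K4me1 libraries held nEnd GATA6 peaks about as often as nEnd-only regions, at 55.3% in B9 and 66.3% in B12. In DP cells the regions in all 4 came first, at 29.8%, 18.6% and 7.56% in A, A1 and B. GATA6 in at least 2 DP libraries was found at 17.8% (16.6 to 19.1) of regions in all 4, 7.92% (7.32 to 8.56) of nEnd-only and 2.15% (1.84 to 2.50) of SOX2+-only regions. Of the 597 nEnd-only regions that DP cells bound in this way, 544 had a GATA6 peak in both nEnd clones.

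SOX2 gave the opposite order. In SOX2+ cells its peaks lay in 38.6%, 40.1% and 26.8% of SOX2+-only regions in the libraries labelled A, A1 and B, and in 6.88%, 8.41% and 4.39% of nEnd-only regions. In 2iLIF, the medium with LIF and inhibitors of MEK and GSK3, SOX2 lay in 28.0% of SOX2+-only regions in clone B9 and 20.9% in B12, and in 6.53% and 3.995% of nEnd-only regions. In NACL, the medium with Activin A, a GSK3 inhibitor and LIF, it lay in 52.5% and 36.3% of SOX2+-only and 12.5% and 7.51% of nEnd-only regions. All 7 libraries were lower in nEnd-only regions, and the mean difference, nEnd-only minus SOX2+-only, was -27.6 ± 7.82 points (SD, n = 7). The exact sign-flip p was 0.0156, the smallest possible with 7 libraries, and 0.0938 after adjustment, the smallest that the adjustment over 6 tests allows here, so this test could not pass 0.05. Both clones in both media had this order. The SOX2 and H3K4me1 libraries of SOX2+ cells share the letters A and B, and the NACL library of B12 is named SOX2 in its title but IgG in its source name, with a mean difference of -27.4 points without it. SOX2 in DP cells lay in 10.6%, 11.6% and 4.02% of SOX2+-only and in 4.34%, 5.40% and 0.717% of nEnd-only regions (exact sign-flip p = 0.25, the smallest possible with 3, adjusted p = 0.3).

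Regions in all 4 libraries had the highest SOX2 shares, from 28.6% to 61.4% over the 7 libraries of pluripotent cells. They were also the widest, at a median of 9039 bp. SOX2 was found in no SOX2+ library at 55.0% of SOX2+-only, 43.5% of 4-library and 90.2% of nEnd-only regions. Regions bound by both SOX2 and GATA6, each in at least 2 DP libraries, made up 9.72% (8.75 to 10.8) of regions in all 4, 2.18% (1.86 to 2.53) of nEnd-only and 0.857% (0.662 to 1.09) of SOX2+-only regions. With all H3K4me1 peaks the SOX2 difference, nEnd-only minus SOX2+-only, was smaller, at -13.7 points.

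**Figure D3:**
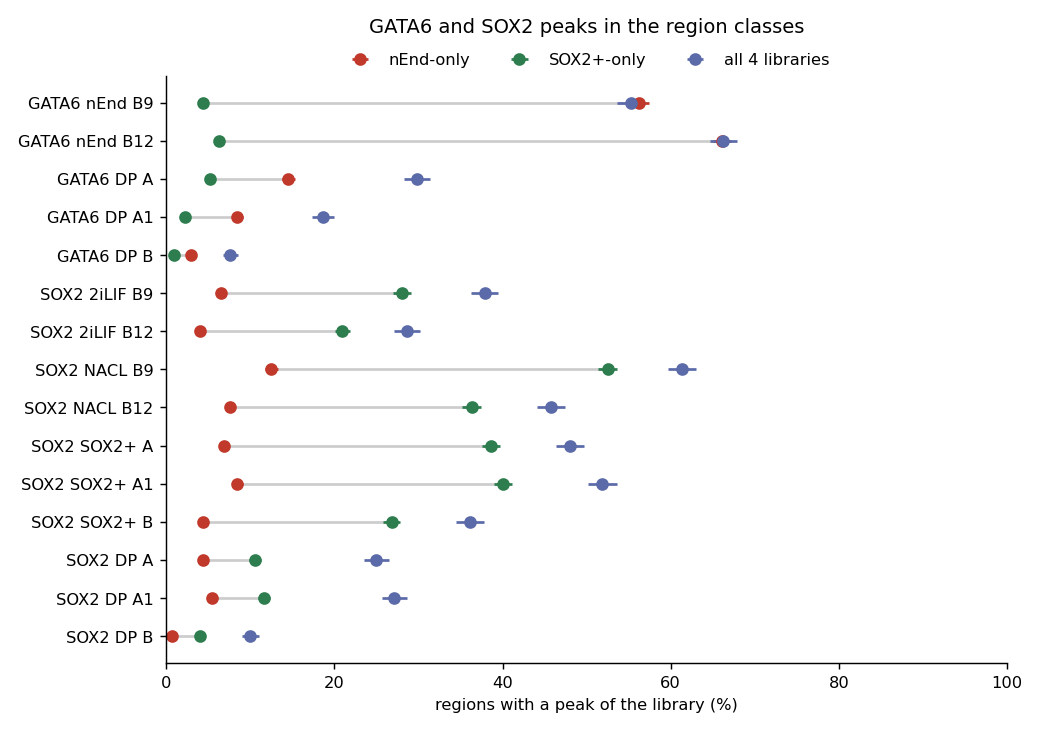
Percent of regions of each class (x axis) that hold a peak of each GATA6 or SOX2 library (y axis). Points are shares with 95% Clopper-Pearson bars, and grey lines join nEnd-only (red) and SOX2+-only (green): red lies right of green in all 5 GATA6 libraries and left of it in all 10 SOX2 libraries.

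Short strings that these factors recognise were searched at the strongest H3K4me1 position, and their shares differed between the classes. The search covered 500 bp and both strands, for AGATAA, the string of GATA6 and its relatives, and for the SOX string CATTGT. It also covered ATGCAAAT, the octamer of POU factors such as POU5F1, then TCAAGGTCA, the string of ESRRB and NR5A2, and finally CCACACCC of the KLF factors. None of the strings contains another. AGATAA was present in 44.8% (43.7 to 45.9) of nEnd-only, 32.5% (30.9 to 34.04) of 4-library and 23.1% (22.2 to 24.1) of SOX2+-only windows, against 33.3% of the windows of all 37513 merged regions. ATGCAAAT was in 6.79% (6.24 to 7.38) of SOX2+-only and 3.12% (2.74 to 3.54) of nEnd-only windows, and 4.73% of all. TCAAGGTCA was in 4.39% (3.94 to 4.88) of SOX2+-only and 1.45% (1.19 to 1.74) of nEnd-only windows, and 2.84% of all. CCACACCC was in 7.53% of SOX2+-only, 5.57% of nEnd-only and 9.98% of 4-library windows, and 7.28% of all. CATTGT went the other way from SOX2 binding, at 28.0% (27.03 to 29.1) of SOX2+-only and 33.1% (32.0 to 34.2) of nEnd-only windows, and 29.2% of all. A match describes the letters and is no sign of binding.

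At the GATA6 maxima of nEnd, AGATAA was frequent in every class. In 200 bp around the strongest B9 maximum it was in 64.4% of 4227 nEnd-only, 59.4% of 1911 4-library and 53.5% of 318 SOX2+-only regions, and in 57.2% of all 24223 B9 peaks. The B12 shares were 63.9%, 60.3% and 53.8%, and 55.7% of all peaks. At the SOX2 maxima of SOX2+ A, CATTGT was in 29.2% (27.6 to 30.9) of 2921 SOX2+-only and 47.5% (43.1 to 51.9) of 514 nEnd-only regions, against 34.5% of all 16819 peaks. In SOX2+ B the shares were 31.2% and 48.3%, against 36.2% of all. The few nEnd-only regions that SOX2 occupied in SOX2+ cells thus held the SOX letters more often at the maximum than the SOX2+-only regions did. AGATAA was also at 20.4% of those nEnd-only SOX2 maxima and 8.70% of the SOX2+-only ones in SOX2+ A, and at 20.1% and 7.996% in SOX2+ B.

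H3K27ac separated the classes in the same way as H3K4me1. In nEnd it lay in 62.3% of nEnd-only regions in clone B9 and 67.7% in B12, and in 12.4% and 14.3% of SOX2+-only regions. In SOX2+ A and B it lay in 34.4% and 34.4% of SOX2+-only and 5.96% and 6.61% of nEnd-only regions. Of nEnd-only regions, 4262 (56.6%, 55.4 to 57.7) had H3K27ac in both nEnd clones, and 2812 (37.3%) had it together with GATA6 in both. Of SOX2+-only regions, 1992 (26.3%, 25.3 to 27.3) had H3K27ac in both SOX2+ libraries. The SOX2+ lists of H3K27ac were shorter, at 13514 and 14722 peaks against 21394 and 20072 in nEnd. H3K27ac of both nEnd clones lay at 73.6% of regions in all 4, and that of both SOX2+ libraries at 50.3%.

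The ESC cultures of 2iLIF and NACL resembled SOX2+ cells at these regions in both clones. Their H3K4me1 lists were likewise cut to 18627 peaks. In 2iLIF, H3K4me1 then lay in 53.5% of SOX2+-only and 12.1% of nEnd-only regions in B9 and in 66.5% and 15.9% in B12. In NACL it lay in 49.3% and 17.3% in B9 and 58.2% and 13.1% in B12. Both clones grown as ESCs thus had the higher share in SOX2+-only regions. The difference was smaller in B9 than in B12 in both media. The part of the clone in nEnd H3K4me1, measured in B9 alone, was not tested. With the full lists the mean difference over the 4 libraries, nEnd-only minus SOX2+-only, was -45.6 ± 7.63 points (SD, n = 4), and 4 of 4 libraries were lower in nEnd-only regions. The exact sign-flip p was 0.125, the smallest possible with 4, and the adjusted p 0.188. H3K27ac of the same cultures was also lower in nEnd-only regions in 4 of 4 libraries, with a mean difference of -18.1 ± 5.22 points with the full lists (exact sign-flip p = 0.125, adjusted p = 0.188). It was larger at 18627 peaks, at -30.4 points, and in the 1 kb windows, at -33.9 points. H3K4me1 of the 1 DP library, at 18627 peaks, lay in 15.7% of nEnd-only and 61.8% of SOX2+-only regions, and H3K27ac of the 1 DP library in 11.1% and 32.7%, with no replicate of either.

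**Figure D4:**
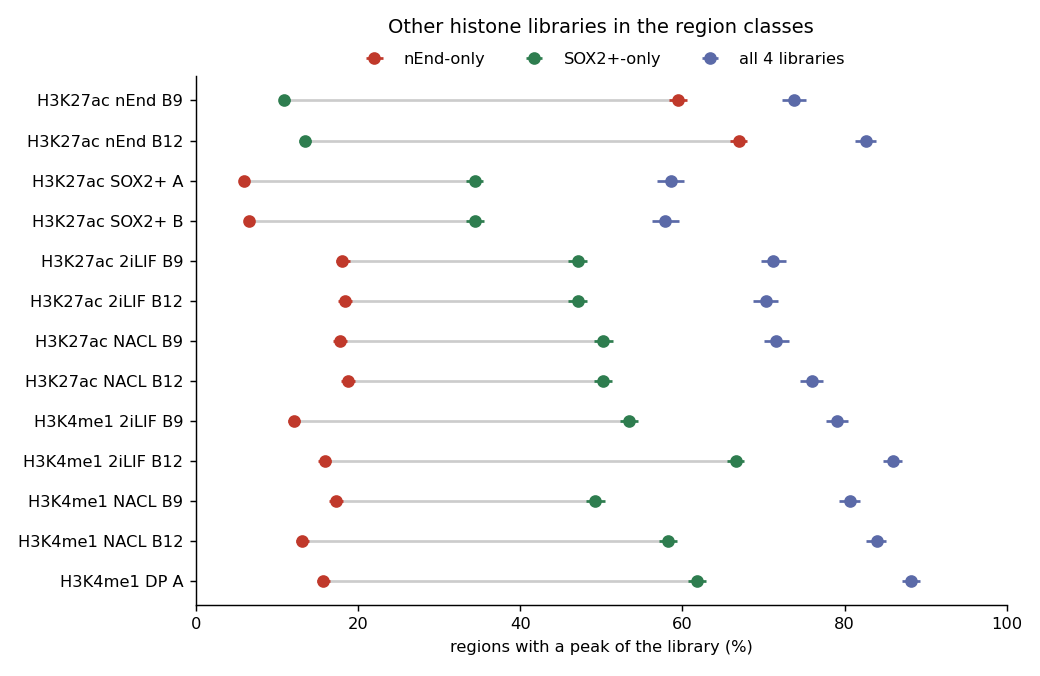
Percent of regions of each class (x axis) with a peak of histone libraries that were not used to define the classes (y axis), with 95% Clopper-Pearson bars, at 18627 peaks per library except for the 2 shorter H3K27ac lists of SOX2+ cells, used whole. H3K27ac of nEnd is higher in nEnd-only (red), and the other 11 libraries shown, which leave out H3K27ac of DP cells, are higher in SOX2+-only (green).

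nEnd-only regions with a lower-ranked SOX2+ peak also carried the mark more often in the other ESC cultures. Of the 3464 nEnd-only regions with a lower-ranked SOX2+ peak, 37.2% came within 1 kb of a start site, against 18.8% of the 4071 without one. The former were also wider, with a median of 5957 bp against 4494 bp, and the part of width in the shares that follow was not tested. H3K4me1 of 2iLIF, with full lists, lay in 39.5% (B9) and 69.1% (B12) of the former and 8.13% and 20.9% of the latter. H3K27ac of SOX2+ A lay in 11.3% and 1.40%, and SOX2 of SOX2+ A in 11.4% and 3.07%. GATA6 of nEnd differed little between them, at 54.4% and 57.9% in B9 and 63.7% and 68.0% in B12. Of the DP H3K4me1 list of 130749 peaks, a peak lay in 96.3% of the former and 54.0% of the latter. H3K4me1 was in none of the 4 libraries of 2iLIF and NACL at 48.7% of nEnd-only regions, 4.52% of SOX2+-only and 0.606% of regions in all 4.

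Chromosome 14 followed the clone. It held 5.19% of nEnd-only regions, 1.33% of SOX2+-only and 2.08% of regions in all 4. Over all antibodies and cultures, the 10 libraries of clone B9 had 3.91% to 4.53% of their peaks on this chromosome and the 23 libraries of clone B12 1.65% to 3.07%, with no overlap. In nEnd itself the share was 3.91% in B9 and 2.94% in B12 for H3K27ac, and 4.03% and 3.07% for GATA6. At the 391 nEnd-only regions of chromosome 14, H3K4me1 of NACL lay in 38.4% in B9 and 11.3% in B12, whereas on other chromosomes it lay in 29.2% and 19.7%. H3K4me1 of 2iLIF lay in 34.8% in B9 and 38.1% in B12 on chromosome 14, and in 21.9% and 43.3% elsewhere. In both media the B9 share was thus higher on this chromosome than elsewhere, and the B12 share lower. GATA6 of nEnd lay in 52.7% in B9 and 55.8% in B12 on chromosome 14, and in 56.5% and 66.6% elsewhere. For regions on this chromosome, which holds Gata4, Sox7, Nid2, Klf5, Otx2 and Zic2 of the listed genes and also Zmiz1, the clone and the population cannot be told apart in H3K4me1. Without the chromosome there were 7144 nEnd-only and 7481 SOX2+-only regions, and the GATA6 and SOX2 differences were 26.1 and -27.7 points.

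By the nearest start site, nEnd-only regions fell to 4377 and SOX2+-only regions to 4387 of 21938 protein-coding genes, 20% in each case, and 1314 genes had both. For single genes the mark is given as the kilobases covered by peaks of each library within the gene and 10 kb on each side, which describes breadth and not height. All such values refer to the 18627 strongest peaks per library, so that none or no peak is said of these and not of the full lists. In the full lists a lower-ranked peak of the other population lay in 2 of the 5 nEnd-only regions of Lama1, 1 of 6 of Gata4, 4 of 8 of Foxa2, 2 of 5 of Pdgfra, 2 of 9 of Foxq1 and the 1 of Amn and of Lhx1. It lay in 2 of the 12 SOX2+-only regions of Nr5a2 and 2 of 17 of Sox2, and in none of those of Fgf4, Fgfr1, Gata3, Pax6, Sox1 and Gli2. Over all genes, both nEnd libraries covered more than both SOX2+ libraries at 5117 genes (23.3%), and both SOX2+ libraries covered more at 2731 (12.4%). With covered bases divided by each library's total, the numbers were 4342 and 3650. Without nEnd 2 the unscaled numbers were 7973 and 2991. No test was made on lists of genes, which were chosen from general knowledge of these lineages with earlier results of the data known.

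The transcription factors of PrE all had nEnd-only regions, 6 of 6 genes against 20% of all genes, and 5 of 6 were covered more in both nEnd libraries, against 23.3%. Gata4, a GATA factor that acts with GATA6, had 6 nEnd-only regions. Peaks covered 68.0 kb of its surroundings in nEnd 1 and 61.2 kb in nEnd 2, and none in SOX2+ A or B. Gata6 itself had 31.7 and 18.8 kb in nEnd and 0 and 3.44 kb in SOX2+. It had 5 nEnd-only regions and also 2 SOX2+-only ones. Foxa2, a forkhead factor of endoderm, had 8 nEnd-only regions of 80.4 kb together. These lay mostly upstream or downstream at a distance, so its own surroundings held 6.34 and 8.57 kb in nEnd and none in SOX2+. GATA6 of both nEnd clones occupied 7 of these 8 regions. Sox17 was the exception to the ordering of its surroundings, with 8.29 and 1.61 kb in nEnd and 2.26 and 0 kb in SOX2+, although 6 nEnd-only regions lay nearest to it.

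Of the basement membrane genes, 5 of 9 had an nEnd-only region, against 20% of all genes, and 8 of 9 were covered more in both nEnd libraries, against 23.3%, or 6 of 9 after scaling, when Lamc1 and Hspg2 overlapped and Nid1 was higher in both SOX2+ libraries. Lama1, the laminin alpha chain of the embryonic basement membrane, had the largest summed width of nEnd-only regions of any gene, 106 kb in 5 regions. Its surroundings were covered over 98.2 kb in nEnd 1 and 31.9 kb in nEnd 2 and had no peak in SOX2+. Col4a1 and Col4a2, type IV collagen chains transcribed in opposite directions from neighbouring starts, share part of these surroundings. Col4a1 had 105 and 68.9 kb in nEnd against 7.13 and 3.06 kb in SOX2+, and Col4a2 had 98.2 and 92.0 kb against 4.36 and 0 kb. Lamc1, the laminin gamma chain, had 103 and 52.6 kb in nEnd and 41.4 and 35.5 kb in SOX2+, and the regions nearest to it were 4 in all libraries, 2 of them beyond these surroundings, and 1 that was SOX2+-only. Nid1, which encodes the linker protein nidogen, was the 1 gene not covered more in nEnd, with 0 and 2.15 kb in nEnd and 2.08 and 6.87 kb in SOX2+, and the populations overlapped.

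All 4 genes of endocytosis in endoderm had nEnd-only regions and were covered more in both nEnd libraries, against 20% and 23.3% of all genes, except that Lrp2 overlapped after scaling. Dab2, an adaptor of clathrin-coated vesicles, had 82.7 and 42.2 kb in nEnd and 5.99 and 6.97 kb in SOX2+. Cubn, the receptor cubilin, had 73.3 and 26.5 kb against 4.55 and 3.69 kb, and Amn, its partner amnionless, 6.79 and 7.20 kb against none. Among receptors, Pdgfra, a PrE marker, had 40.6 and 16.8 kb in nEnd and none in SOX2+. GATA6 of all 3 DP libraries lay in 2 of its 5 nEnd-only regions, and these 2 held a lower-ranked SOX2+ peak in the full lists. The FGF receptors differed from each other. Fgfr2 had 309 and 339 kb in nEnd against 109 and 118 kb in SOX2+. Its window was 2981 kb because the annotated gene is that long, and coverage in it was not split by nearest gene. The 7 nEnd-only regions nearest to Fgfr2 were 66.8 kb together, and the 1 SOX2+-only region 2.43 kb. Fgfr1 had no peak in nEnd and 24.4 and 30.8 kb in SOX2+, with 6 SOX2+-only regions. In the anterior visceral endoderm list, 3 of 5 genes had an nEnd-only region, against 20% of all genes, and 2 of 5 were covered more in both nEnd libraries, against 23.3%. Dkk1, a WNT antagonist, had 12.5 and 9.54 kb in nEnd and 0 and 2.32 kb in SOX2+, while Cer1 had no peak in any of the 4 libraries. Lefty1, an inhibitor of NODAL, overlapped, with 12.4 and 7.18 kb in nEnd and 9.67 and 6.81 kb in SOX2+, and was covered more in both SOX2+ libraries after scaling. Lhx1, a homeobox factor, had 3.13 and 0 kb in nEnd and none in SOX2+.

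Over the 27 genes of the endoderm lists, 21 were covered more in both nEnd libraries and 1, Fgfr1, in both SOX2+ libraries, against 23.3% and 12.4% of all genes. Scaled by each library's total, these numbers were 18 and 3, against 4342 and 3650 of the 21938 genes. The 78 nEnd-only regions nearest to these genes held GATA6 peaks of both nEnd clones in 46 cases (59.0%), against 53.2% of all nEnd-only regions, and H3K27ac of both nEnd clones in 51, where the share of all nEnd-only regions was 56.6%. None of the 78 had H3K27ac in both SOX2+ libraries, against 3.305% of all nEnd-only regions.

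Among the core pluripotency genes, a SOX2+-only region lay nearest to 3 of 7, against 20% of all genes, and 4 of 7 were covered more in both SOX2+ libraries, against 12.4%. After scaling these were 6 of 7, and no gene was covered more in nEnd. Sox2 had the largest summed width of SOX2+-only regions of any gene, 92.6 kb in 17 regions. Its surroundings had no peak in nEnd and 17.4 and 16.2 kb in SOX2+. Fgf4, the ligand by which epiblast cells act on PrE precursors, had none in nEnd and 19.1 and 20.1 kb in SOX2+. Nanog, a homeobox factor of naive cells, had 0 and 2.18 kb in nEnd and 9.78 and 13.2 kb in SOX2+. Pou5f1, the POU factor that forms the octamer-binding partner of SOX2, had 19.4 and 7.86 kb in nEnd and 11.8 and 11.7 kb in SOX2+. It had 2 regions in all 4 libraries and no class region of either population. Sall4 was covered more in both nEnd libraries, with 22.9 and 15.6 kb against 13.7 and 12.9 kb, but after scaling more in both SOX2+ libraries.

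Naive pluripotency genes split into both directions. Of 12 genes, 8 had a SOX2+-only and 7 an nEnd-only region, 6 were covered more in both nEnd libraries and 3 in both SOX2+ libraries, against 20% of all genes for either class of region and 23.3% and 12.4% for coverage. Scaled by each library's total, these were 5 and 6. Nr5a2, a nuclear receptor, had no peak in nEnd and 28.0 and 30.2 kb in SOX2+. Of the 12 SOX2+-only regions nearest to it, 6 lay beyond these surroundings. Esrrb, an orphan nuclear receptor, had 12.6 and 17.4 kb in nEnd and 58.5 and 61.5 kb in SOX2+. Klf2 had 5.70 and 0 kb in nEnd and 13.1 and 16.6 kb in SOX2+. Klf4 and Klf5, of the same zinc finger family, went the other way. Klf4 had 15.7 and 12.4 kb in nEnd against 1.30 and 2.24 kb, and Klf5 17.8 and 9.37 kb against 1.14 and 0 kb. Tfcp2l1, Tcl1, Dppa3 and Nr0b1 were likewise covered more in both nEnd libraries, but scaling turned the order at Tfcp2l1. Tbx3, a T-box factor also expressed in PrE, overlapped, with 24.9 and 12.3 kb in nEnd and 11.1 and 17.8 kb in SOX2+.

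Over the 19 pluripotency genes, 7 were covered more in both libraries of each population, and after scaling by the covered total 5 were higher in nEnd and 12 in SOX2+. Of the 47 SOX2+-only regions nearest to them, SOX2 peaks of SOX2+ A and B lay in 12 (25.5%), against 26.1% of all SOX2+-only regions. GATA6 peaks of both nEnd clones lay in none of the 47, against 3.48% of all SOX2+-only regions. They lay in 11 (52.4%) of the 21 nEnd-only regions of the same genes, which is close to the 53.2% of all nEnd-only regions. H3K27ac of both nEnd clones lay in 3 of those 21, whereas over all nEnd-only regions the share was 56.6%.

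**Figure D5:**
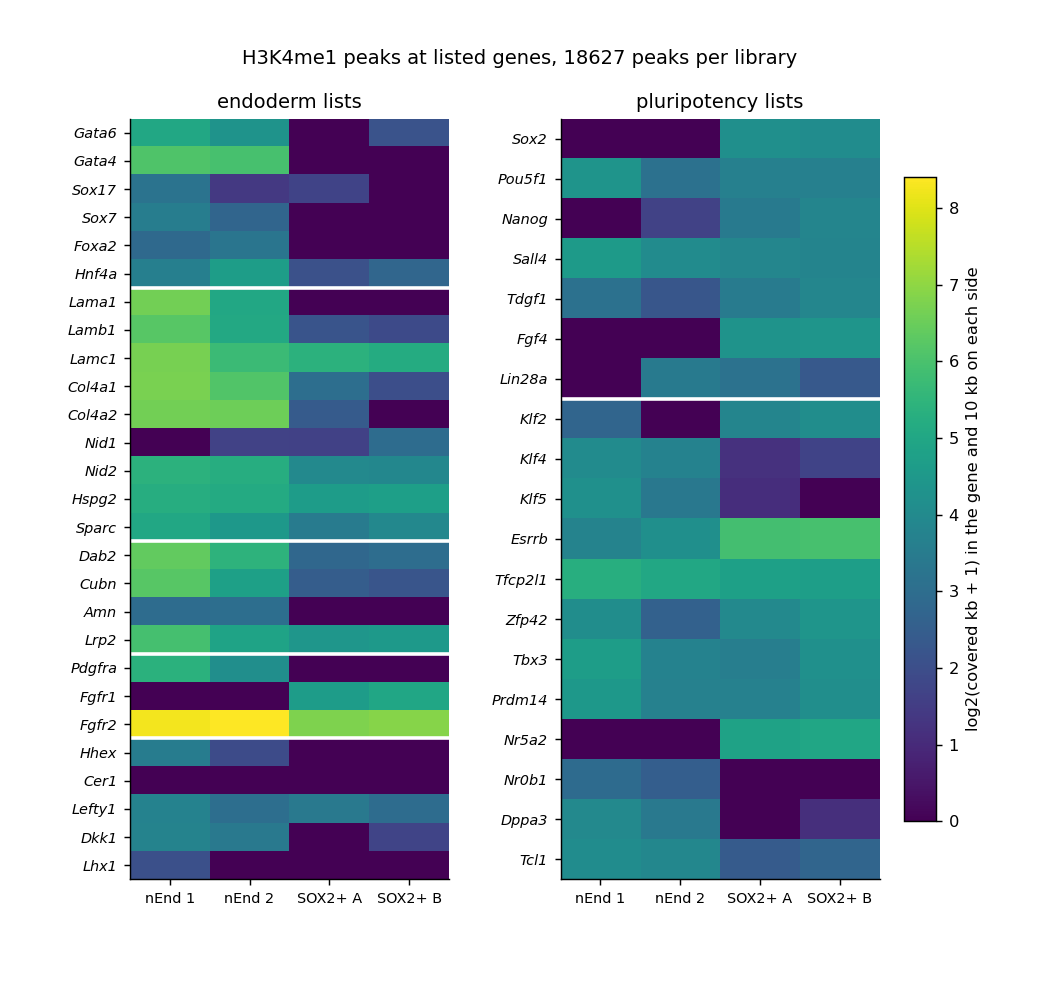
Kilobases covered by H3K4me1 peaks in each listed gene and 10 kb on each side, as log2(kb + 1) (colour), for the 4 libraries (columns) at 18627 peaks per library, with white lines between lists. Of the endoderm genes (left), 21 of 27 are covered more in both nEnd libraries, while the pluripotency genes (right) divide 7 and 7, or 5 and 12 after scaling by each library's total.

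Genes of other lineages also had class regions, against 20% of all genes for either class. Of 7 trophectoderm genes, 2 had an nEnd-only and 3 (42.9%) a SOX2+-only region. Gata3, a GATA factor of trophectoderm, had 5 SOX2+-only regions, with no peak in nEnd and 11.8 and 15.6 kb in SOX2+. By breadth the list was split, also after scaling. In it 2 genes, Eomes and Elf5, were covered more in both nEnd libraries and 2, Gata3 and Tfap2a, in both SOX2+ libraries. Of 7 formative epiblast genes, 2 had an nEnd-only and 4 (57.1%) a SOX2+-only region, while by breadth 2 were covered more in both nEnd libraries and 1 in both SOX2+ libraries, or 0 and 2 after scaling. Of 6 mesoderm and neural genes, 1 and 3 did. Sox1, a neural SOX factor, had 4 SOX2+-only regions, all of them over 30 kb from its start, and no peak in its surroundings in any library. Pax6 had none in nEnd and 11.5 and 10.2 kb in SOX2+. Markers of fibroblasts, which could stand for feeder cells, had no nEnd-only region at 5 of 5 genes and 1 SOX2+-only region, at Thy1. None of the 7 housekeeping genes had an nEnd-only region and 1, Eef2, had a SOX2+-only one. By breadth, however, 3 of the 7 (Actb, Gapdh and Rplp0) were covered more in both nEnd libraries and none in both SOX2+ libraries, and after scaling 1 was, Rplp0. As a check of the labels, 5 of 6 PrE factors were covered more in both nEnd libraries, with Sox17 overlapping, and 4 of 7 core pluripotency genes more in both SOX2+ libraries, with Pou5f1 and Lin28a overlapping and Sall4 covered more in nEnd before scaling.

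Beyond the lists, the 10 genes with the largest summed width of nEnd-only regions were Lama1, Iqsec1, Bend5, Foxq1, Zfp608, Rere, Rreb1, Zmiz1, Foxa2 and Shroom3. Their summed widths ran from 80.3 to 106 kb. In the gene and 10 kb around it, all 10 were covered more in both nEnd libraries. Foxq1, a forkhead gene, had 9 regions of 87.8 kb together. Its surroundings of 24.8 kb held 8.40 and 13.5 kb in nEnd and none in SOX2+. Rreb1, a zinc finger factor that responds to RAS signalling, had 10 regions, and its surroundings held 69.3 and 60.4 kb in nEnd against 12.9 and 20.2 kb in SOX2+. The 10 for SOX2+-only regions were Sox2, Zfp281, Magi1, Gli2, Pitpnc1, Rnf220, Ppp1r9a, Msi2, Sox4 and Ninj2, with 55.1 to 92.6 kb. Zfp281, a zinc finger factor that takes part in the exit from naive pluripotency, had 17 regions of 80.9 kb, and Gli2, a transcription factor of the hedgehog pathway, 15 regions and no peak of nEnd in its surroundings. Msi2, an RNA-binding protein, had 84.7 and 100.4 kb in SOX2+ and 14.2 and 2.903 kb in nEnd. These 20 genes were picked by these widths, so their coverage is a description.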

How the data were processed

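The authors sequenced CUT&RUN libraries of SGGC mouse ESCs, aligned the reads to GRCm38 and called peaks per library with SEACR. The submitters' processing notes list cutadapt 1.18, Bowtie2 2.3.4.1, SAMtools 1.9, Picard 2.9.1, bedtools 2.27.1, deepTools 3.2.0 and SEACR, for which no version is given. The deposited lists give for each peak its position, total signal and maximum signal, which is coverage on each library's own scale. Signal thus served to order the peaks of one library and was never compared between libraries. Lists of histone marks are named relaxed and lists of SOX2 and GATA6 stringent, whereas the study's methods give the opposite, and the lists were used as named. No source used here gives the read depth, so precision was judged from the replicates and from counts of regions.

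Samples were grouped by their labels. Of 53 samples, 35 had a peak list. The 18 IgG samples were not analysed here, and 2 samples whose labels name different populations were placed in no group. Each list was cut to the 18627 peaks with the highest maximum signal (ties by total signal, then position), merged with an overlap of at least 1 bp, and classed by presence in the 4 libraries. Start sites and gene bodies came from the GENCODE annotation of GRCm38, with 21938 protein-coding genes, and sequences from the RefSeq copy of that build, and no peak ended beyond a reference chromosome. A region was assigned to the gene of the nearest start site, and covered bases were counted in each gene and 10 kb on each side. Populations were compared by an exact permutation test, 2 libraries against 2, and shares of classes by a two-sided exact sign-flip test over libraries, with Benjamini-Hochberg adjustment over 6 tests at a threshold of 0.05. All peak numbers, the stronger 50%, ranking by total signal, other overlaps, windows and annotations, and the omission of each replicate were tried as alternatives. The merging and tests were tested on simulated data. Python 3.11.15, numpy 2.4.6, pandas 2.3.3, scipy 1.17.1 and matplotlib 3.10.9 were used. The genes named were the 78 of 12 lists and the 10 with the largest summed width of class regions in each direction. The regions compared and the lists were chosen with earlier results of these data known. One gene of the lists is not reported here and was left out of their counts.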

Additional observations from a re-analysis of the deposited data

Results flagged for a closer look

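One H3K4me1 library was left out of every group because its labels name different sorted populations. Its list held 94492 peaks. At 18627 peaks it had a peak in 10.2% of nEnd-only regions, 72.6% of SOX2+-only regions and 91.9% of regions in all 4 libraries. It was singled out as a signal in data that the comparisons do not use. Whole lists put it at 58.5% of nEnd-only and 99.5% of SOX2+-only regions.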

How the results depend on the processing

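Of 135 recomputed values of 17 results, 2 changed sign and 24 moved, by over 1.5 times for counts. The other 109 include tested differences that kept their direction and stayed above 0.05 whatever their size. Thus 48 of 48 differences in GATA6, SOX2 and histone shares kept their direction, but GATA6 ranged from 4.43 to 55.9 points and SOX2 from -32.4 to -13.7, and the start-site difference between libraries was 0.534 points with all peaks. With all peaks there were 28818 SOX2+-only regions and 8175 in all 4 libraries, 10144 genes with a SOX2+-only region, and the start-site share of nEnd-only minus SOX2+-only regions was -1.83 points. With the stronger 50% of peaks the numbers of nEnd-only, SOX2+-only and 4-library regions were 3859, 4063 and 1317. With absence judged from all peaks there were 4071 nEnd-only regions, 2660 genes with one and a start-site difference of 6.56 points. Requiring a peak over 50% of the bases left 1141 regions in all 4. With 42816 peaks from each of the 3 longer lists, an alternative chosen after seeing the data like those without chromosome 14, of single populations, of equal numbers for other libraries and of scaled coverage, the numbers were 25413, 17344 and 12446. The start-site difference was 9.34 points by total signal and 15.6 points at 5 kb. Without each H3K4me1 replicate in turn, nEnd-only regions numbered 8096 to 12641, SOX2+-only 8211 to 11930 and 4-library regions 3993 to 4253, where fewer libraries have to share a peak, and the start-site difference ranged from -0.696 (without nEnd 1) to 13.4 points. The endoderm genes covered more in both nEnd libraries numbered 21 to 24 under these omissions. The cause of the other changes was not tested. No paired analysis was possible because the nEnd and SOX2+ libraries of H3K4me1 share no replicate number or clone. Peak number per library limits what could be seen, and none of the 6 tests could reach 0.05 after adjustment.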

Other observations

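At the listed genes, the regions marked in all 4 libraries held peaks of both factors, counted separately. Of the 27 such regions nearest to endoderm genes, 21 (77.8%) had GATA6 peaks of both nEnd clones, against 53.2% of all regions in all 4 libraries, and 12 (44.4%) had SOX2 peaks of SOX2+ A and B, against 34.9%. Of the 31 nearest to pluripotency genes, 15 (48.4%) had the GATA6 peaks and 18 (58.1%) the SOX2 peaks. GATA6 of at least 2 DP libraries lay in 12 of the 27 and 8 of the 31, against 17.8% of all regions in all 4. Among the 78 nEnd-only regions of endoderm genes, SOX2 peaks of SOX2+ A and B lay in 6 (7.69%), against 3.995% of all nEnd-only regions, and GATA6 of at least 2 DP libraries in 14, against 7.92%. Nothing was tested on these counts.

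At least 5 nEnd-only regions lay nearest to the same gene at 196 genes, and at least 5 SOX2+-only regions at 190 genes, with up to 13 and 19 regions at 1 gene (Zmiz1 and Magi1), while the median over genes with a region was 1. The X chromosome held 1.92% of nEnd-only and 0.594% of SOX2+-only regions. Chromosome 1 held 6.46% and 11.03%.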
